A study of Homo sapiens with 12 samples.

Results

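The genes described here are 38 genes of glycolysis and of the response to low oxygen, taken as a fixed list by gene symbol from a count table of 23434 genes. The list holds glucose transporters, the enzymes from hexokinase to pyruvate kinase, the bifunctional enzymes that set fructose 2,6-bisphosphate, lactate and pyruvate handling, the oxygen sensing pair of HIF alpha subunits and prolyl hydroxylases, and 9 further genes known to respond to hypoxia. All 38 symbols were found in the table, each once. The measurement was EU-seq, in which cells take up the uridine analogue 5-ethynyl uridine (EU) for a short pulse and the RNA that incorporated it is captured and sequenced, so that a count reflects RNA made during the pulse rather than the whole pool.

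The cells were U2OS, a human osteosarcoma line, and every group carried MycER, a fusion of MYC with the hormone binding part of the oestrogen receptor that moves into action when 4-hydroxytamoxifen (OHT) is given. Each group also carried a doxycycline-inducible shRNA, either a non-targeting one (shNT) or one against CDK12 (shCDK12), the kinase that phosphorylates the tail of RNA polymerase II during elongation. All 4 groups received 1 µg/mL doxycycline, were held in mitosis with 100 ng/mL nocodazole for 8 h, shaken off and released for 12 h, and were pulsed with 0.5 mM EU for 2 h. The groups were shNT and shCDK12 without OHT, and shNT_OHT and shCDK12_OHT with 300 nM OHT for 40 h, with 3 libraries each and 12 in all. As models, these groups share the exogenous MycER and the release from a mitotic block, and none is a culture grown without doxycycline. Per library, 40 µg of human RNA was mixed with 10 µg of mouse RNA before capture. No mouse gene has a line in the table, so levels below are relative to the rest of the human counts and a change in total RNA synthesis cannot be read from them.

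Glycolysis splits glucose into pyruvate in a chain of steps in the cytosol, and cells that send pyruvate on to lactate export it through monocarboxylate transporters. When oxygen is low, the prolyl hydroxylases of the EGLN family stop marking HIF-1 alpha and HIF-2 alpha for destruction, and the stabilised alpha subunits pair with ARNT and switch on glucose transporters, most glycolytic enzymes and genes such as VEGFA and BNIP3. MYC also binds many glycolytic genes, and both factors read short sequences that share the letters ACGTG.

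Library totals ran from 1251695 counts in shNT_OHT replicate 2 to 10447836 in shCDK12_OHT replicate 2. The totals were 4314380, 5227279 and 1928373 in shNT, 3297982, 1251695 and 3666406 in shNT_OHT, 4142570, 9400045 and 5349901 in shCDK12, and 7173020, 10447836 and 5378438 in shCDK12_OHT, so that weak genes were measured least precisely in shNT_OHT replicate 2 and shNT replicate 3. Levels are given in CPM, the count scaled to a common normalised library size. Differences are given as log2 fold changes with their standard error, and adjusted p-values come from the quasi-likelihood test of edgeR, adjusted by Benjamini-Hochberg over all genes tested, with n = 3 libraries a group. A gene was called where the adjusted p was under 0.05, and a gene is said to rise or fall only where it was called. Values in brackets after a gene are its log2 fold change ± standard error.

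The labels were checked first on the targeted gene. CDK12 stood at 323, 283 and 312 CPM in shNT, 456, 362 and 404 CPM in shNT_OHT, 308, 282 and 306 CPM in the shCDK12-labelled libraries and 217, 208 and 219.7 CPM in the shCDK12_OHT-labelled ones. The libraries labelled shCDK12 overlapped with shNT, and CDK12 did not pass the test there (-0.04 ± 0.09, adjusted p = 0.726, with a 95% interval of -0.20 to 0.13). In shNT_OHT it was higher than in shNT (0.38 ± 0.12, adjusted p = 0.0349). CDK12 was lower in the libraries labelled shCDK12_OHT than in shNT_OHT (-0.89 ± 0.11, adjusted p = 9.25e-05) and than in those labelled shCDK12 (-0.47 ± 0.07, adjusted p = 3.81e-05). The counted reads may lie outside the shRNA target and the assay reads new transcription, so this does not measure the amount of CDK12 RNA or protein left.

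A list of 10 genes known as MYC targets, among them NCL, NPM1, ODC1 and CAD, served as the check on OHT. In shNT_OHT against shNT 9 of the 10 rose and none fell. In the libraries labelled shCDK12_OHT against those labelled shCDK12 none rose and 9 fell, and in the libraries labelled shCDK12 against shNT, neither of which is labelled as given OHT, 7 rose and none fell. The summed level of the 10 genes was 2017, 2022 and 1969.7 CPM in shNT, 3476, 3259 and 3554 CPM in shNT_OHT, 3904, 3596 and 3793 CPM in the shCDK12-labelled libraries and 2059, 2203 and 2249.8 CPM in the shCDK12_OHT-labelled ones. CDK12 in the libraries labelled shCDK12 and the MYC targets under both labels go against what the labels say, so these 6 libraries are called by their label throughout, and each direction that rests on them carries that doubt. An exchange of the OHT labels among these 6 would turn the sign of every value of shCDK12_OHT against shCDK12, and each comparison of them with shNT or shNT_OHT would then set cells given OHT against cells not given it. Whether the labels were exchanged was not tested. The comparison of shNT_OHT with shNT uses none of these libraries. MYC itself, whose count may mix the endogenous gene and the transgene, averaged 2105 ± 111 CPM (SD, n = 3) in shNT, 2018 ± 289.9 CPM in shNT_OHT, 1160.0 ± 109.6 CPM in the shCDK12-labelled libraries and 2073 ± 50.4 CPM in the shCDK12_OHT-labelled ones.

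Of 8 mesenchymal genes that mark an osteosarcoma line, 7 were present, with FN1 (fibronectin) the most abundant in shNT, and COL1A2 was at or near 0 throughout. Their summed level was 1736, 1668 and 1708 CPM in shNT, 1255, 1116 and 1123 CPM in shNT_OHT, 488, 461 and 466 CPM in the shCDK12-labelled libraries and 635, 636 and 648 CPM in the shCDK12_OHT-labelled ones. All 7 tested genes fell in the libraries labelled shCDK12 against shNT, with FN1 17.0-fold lower and RUNX2, the osteoblast factor, 3.50-fold lower. In shNT_OHT against shNT 5 of the 7 fell. Markers of epithelial, blood and liver cells were low everywhere, with a sum over 8 genes of 11.7, 14.1 and 10.4 CPM in shNT and 16.3, 15.0 and 16.7 CPM in the shCDK12-labelled libraries, with CDH1 and EPCAM the most abundant, and KRT19 had a level of 0 in all 12 libraries. In bulk libraries fewer cells of a type and less RNA made per cell cannot be told apart. These marker levels move with the same groups as the genes below, and their part in the results was not tested.

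Promoter sequences of the list were set beside those of all genes in the table. Part of the list was chosen for its response to hypoxia and HIF reads ACGTG, so this motif is not independent of the choice. RefSeq promoters on GRCh38.p14, from 250 bases before to 50 after a start, were available for 32 of the 38 genes (60 promoters). They were scanned on both strands for ACGTG and GCGTG, the cores of HIF sites, and for CACGTG, the E-box read by MYC and its partners, which holds ACGTG on each strand. ACGTG occurred in 23 of the 60 promoters (38.3%) against 23.2% of the promoters of all genes in the table, and CACGTG in 8 of the 60 (13.3%) against 8.30%. GCGTG occurred in 25 of the 60 (41.7%) against 42.8%. By gene, 8 of the 32 had a CACGTG (HK2, LDHA, ALDOA, GAPDH, PFKFB3, BNIP3, ANKRD37 and ALDOC), 25% against 10.75% of all genes in the table with a promoter. ACGTG was found for 59.4% of the 32 against 28.5%, and GCGTG for 62.5% against 50.0%. A gene counts here if any of its promoters holds the motif. The 32 members had 60 promoters and the 16493 genes of the table had 22921. Members thus had more promoters each, which can raise their shares by gene. Some promoters of a gene overlap, and an ACGTG shared by promoters of PFKM is counted for each. No promoter was available for SLC2A3, SLC16A1, VEGFA, BNIP3L and NDRG1, all called in shNT_OHT against shNT, or for PFKFB2. Sequences of 3 promoters are shown, for HK2, the enzyme with the largest fold change in shNT_OHT against shNT, for LDHA, which like HK2 has 2 copies of CACGTG in the promoter shown, and for PGK1, a classical HIF target with ACGTG outside any CACGTG. Each is the 250 bases before the start on the + strand, at chr2:74834920-74835169 for HK2, chr11:18394313-18394562 for LDHA and chrX:78103998-78104247 for PGK1, with capitals marking ACGTG on either strand.
HK2: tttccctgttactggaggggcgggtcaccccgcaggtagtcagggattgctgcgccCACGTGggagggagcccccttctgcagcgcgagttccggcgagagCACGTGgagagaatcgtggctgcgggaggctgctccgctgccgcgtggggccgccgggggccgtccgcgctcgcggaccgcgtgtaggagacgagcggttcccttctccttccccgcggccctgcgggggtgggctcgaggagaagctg
LDHA: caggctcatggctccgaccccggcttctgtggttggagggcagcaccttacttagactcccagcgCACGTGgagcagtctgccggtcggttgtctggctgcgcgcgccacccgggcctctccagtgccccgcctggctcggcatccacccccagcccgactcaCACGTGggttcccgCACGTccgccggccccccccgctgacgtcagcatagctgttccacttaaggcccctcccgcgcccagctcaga
PGK1: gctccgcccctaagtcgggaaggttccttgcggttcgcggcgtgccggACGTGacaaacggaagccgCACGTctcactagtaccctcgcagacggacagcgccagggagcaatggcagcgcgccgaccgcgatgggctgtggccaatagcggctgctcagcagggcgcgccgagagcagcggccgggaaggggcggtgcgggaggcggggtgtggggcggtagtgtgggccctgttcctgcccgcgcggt
The CACGTG copies of HK2 begin at -194 and -149 from the start and those of LDHA at -185 and -87, while in PGK1 the ACGTG copies of this stretch begin at -202 and -183. HK2 and LDHA each have another promoter in the set, not shown. That of HK2 has no CACGTG but 2 copies of ACGTG, and that of LDHA has neither motif. A match of letters is a description and not a site, no binding was measured, and the counts themselves were made on the older build hg19, so these coordinates belong to the promoters only.

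In all 12 libraries the 38 genes together made up under 1% of the counts. Their share was 0.702%, 0.680% and 0.644% in shNT and 0.854%, 0.738% and 0.826% in shNT_OHT. It was 0.966%, 0.877% and 0.922% in the libraries labelled shCDK12 and 0.771%, 0.785% and 0.798% in those labelled shCDK12_OHT. The share was lowest in shNT and highest in the libraries labelled shCDK12, and neither overlapped with another group. Per kilobase of annotated exon, GAPDH had the highest level of the list in shNT, 621 ± 83.6 CPM per kb (SD, n = 3), followed by ENO1 at 140.1 ± 6.54, TPI1 at 93.2 ± 7.10, PKM at 82.7 ± 4.03 and SLC2A1 at 65.0 ± 4.40. TPI1 and PKM lay within the sum of their SDs of each other, and the other neighbours in this order lay further apart than that. Whether reads in introns were counted is not given in the sources used here, so these values per kilobase rest on exon length alone.

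**Figure D1:**
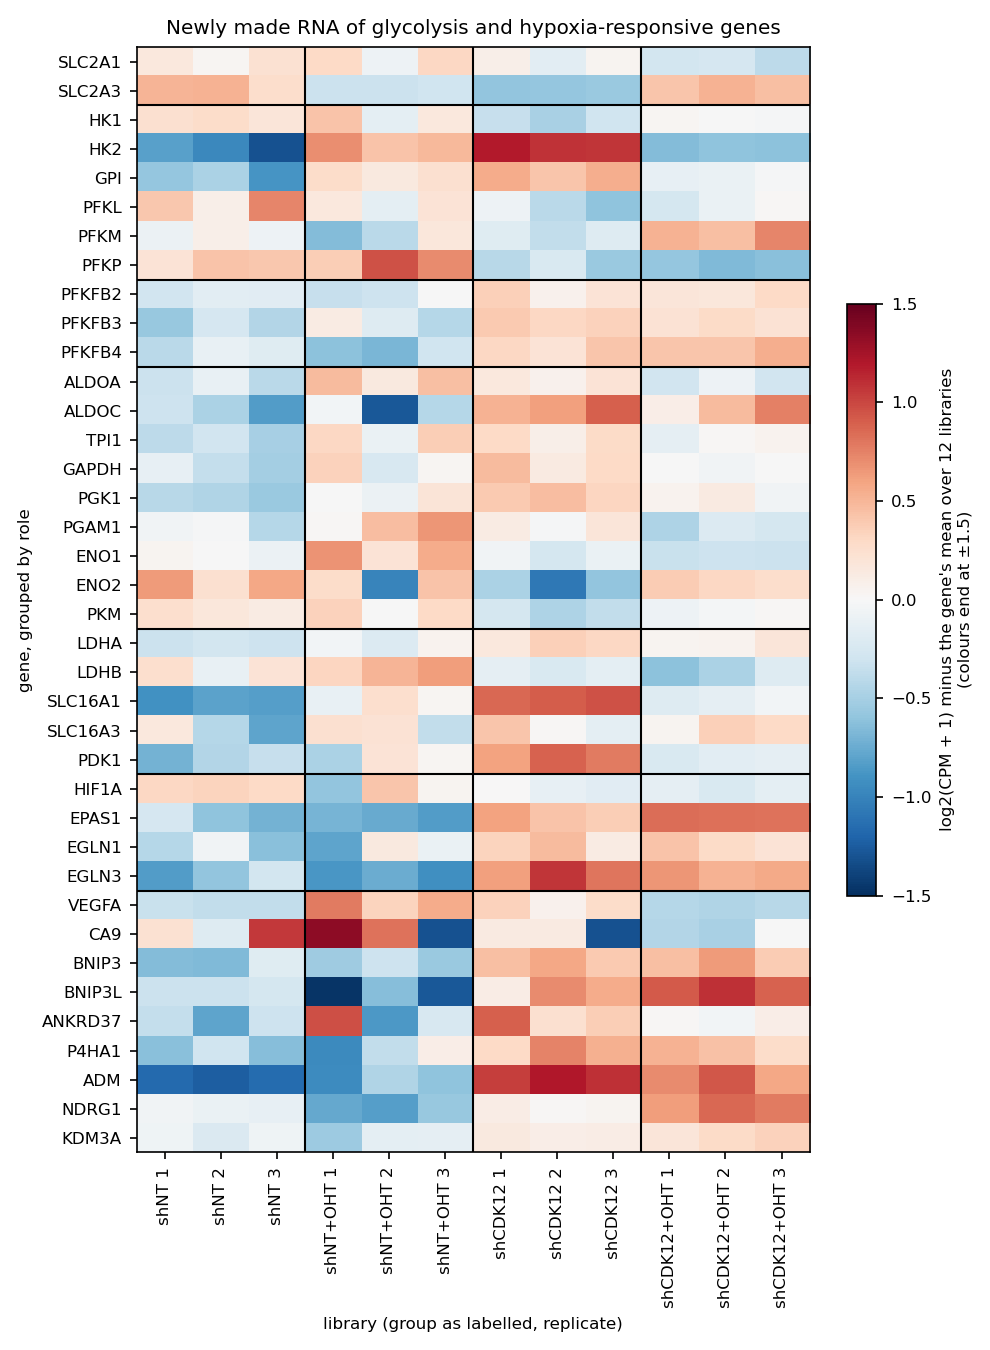
Level of each of the 38 genes (vertical axis, grouped by role) in each of the 12 libraries (horizontal axis), as log2(CPM + 1) minus the mean of that gene over the 12 libraries, with red above and blue below the mean. HK2, SLC16A1 and ADM are darkest red in the libraries labelled shCDK12 and darkest blue in shNT, and the 3 libraries of a group mostly share their colour except for weak genes such as CA9.

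Upon MycER activation in shNT cells new RNA of part of the glycolytic chain rose, and that of a transporter and a pair of hypoxia genes fell. Of 32 members tested, 11 were called in shNT_OHT against shNT (34.4%, where 17.9% of all 9954 genes tested were called). HK2, GPI, ALDOA, TPI1, PGK1, ENO1, SLC16A1 and VEGFA rose, 8 members where 9.39% of all genes did, and SLC2A3, BNIP3L and NDRG1 fell, 3 members where 8.54% of all genes did. The median log2 fold change was 0.14 over the members and -0.028 over all genes. The number of calls here leans on single libraries, for the members as for all genes. Without shNT replicate 3, 7 of 33 members were called, beside 837 of 10138 genes. Without shNT_OHT replicate 3, 7 of 32 were, beside 1074 of 9873 genes. Without shNT_OHT replicate 1, 14 of 32 members were called, beside 2533 of 9936 genes, and without replicate 2, 14 of 33, beside 2436 of 10450.

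In the libraries labelled shCDK12 against shNT most members changed, in a comparison in which most genes changed. Of 34 members tested, 29 were called (85.3%), where 62.6% of all 11422 genes tested were. There 21 members rose, beside 31.6% of all genes, and 8 fell (SLC2A3, HK1, PFKL, PFKP, ENO2, PKM, LDHB and HIF1A), beside 31% of all genes. The median log2 fold change was 0.57 over the members and 0.0093 over all genes.

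Between the libraries labelled shCDK12_OHT and those labelled shCDK12, 22 of 37 members tested were called (59.5%), where 49.4% of all 12374 genes tested were. The balance lay towards lower levels: 8 members rose, beside 25.6% of all genes, and 14 fell, beside 23.8% of all genes, with a median log2 fold change of -0.18 over the members and 0.015 over all genes. In the libraries labelled shCDK12_OHT against shNT_OHT, 22 of 35 members tested were called (62.9%), where 46.3% of all 11082 genes tested were. There 14 rose, beside 23.3% of all genes, and 8 fell, beside 22.9%, and the medians were 0.030 over the members and 0.023 over all genes, the first turning to -0.043 when all 12 libraries were fitted together. That split varied between fits. With the trend of counts with gene span removed from each library, 10 members were called higher and 12 lower, and the share of all called genes that were higher went from 50.4% to 42.9%. Without shNT_OHT replicate 2 the members split into 11 higher and 11 lower, beside 2850 and 2948 of all genes. Without shCDK12_OHT replicate 3 they split into 9 and 8, beside 1781 and 1821 of all genes. Thinned to equal depth, 8 of 28 members tested were higher and 7 lower, beside 1550 and 1572 of 7329 genes. In these 3 fits the split of the members lay close to that of all genes.

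Whether the response to OHT differed between the shRNAs, as labelled, was tested by the interaction over all 12 libraries. It was called for 21 of 34 members tested (61.8%), where 46% of all 11261 genes tested were called. The term was positive for 7 members, beside 23.6% of all genes, and negative for 14, beside 22.4% of all genes, with medians of -0.34 over the members and 0.032 over all genes. With the gene span trend removed it was positive for 5 members and negative for 17, and the share of all called genes with a positive term went from 51.3% to 46.6%.

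The glucose transporters moved apart. SLC2A3 (GLUT3, a transporter of high affinity) stood at 318, 323 and 269 CPM in shNT, 178, 178 and 181 CPM in shNT_OHT, 148, 149 and 152 CPM in the shCDK12-labelled libraries and 299, 322 and 306 CPM in the shCDK12_OHT-labelled ones. The shNT libraries and those labelled shCDK12_OHT overlapped at the top, shNT_OHT lay below both, and the libraries labelled shCDK12 lay lowest with no overlap. SLC2A3 fell in shNT_OHT against shNT (-0.79 ± 0.12, adjusted p = 0.00062), fell in the libraries labelled shCDK12 against shNT (-1.03 ± 0.09, adjusted p = 1.36e-10) and rose in those labelled shCDK12_OHT against those labelled shCDK12 (1.05 ± 0.08, adjusted p = 2.25e-09). It also rose in the libraries labelled shCDK12_OHT against shNT_OHT (0.82 ± 0.10, adjusted p = 0.000114). SLC2A1 (GLUT1, the common transporter of proliferating cells) averaged 430.1 ± 29.1 CPM in shNT and 445 ± 64.5 CPM in shNT_OHT and was called only where the libraries labelled shCDK12_OHT were compared, lower than in those labelled shCDK12 (-0.29) and than in shNT_OHT (-0.47).

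HK2, the inducible hexokinase that traps glucose as its phosphate, had the largest fold change of the enzymes as labelled, in the libraries labelled shCDK12 against shNT. It also had the largest of those tested in shNT_OHT against shNT. The first rank rests on the labels in doubt. In the libraries labelled shCDK12_OHT against shNT, HK2 was at 0.36 ± 0.09 and PFKP at -1.03 ± 0.17. In those labelled shCDK12 against shNT_OHT, HK2 was at 0.59 ± 0.11 and PFKP at -1.09 ± 0.24. HK2 stood at 120.3, 108 and 85.3 CPM in shNT, 345, 287 and 299 CPM in shNT_OHT, 484, 450.3 and 449 CPM in the shCDK12-labelled libraries and 135, 139.9 and 139 CPM in the shCDK12_OHT-labelled ones. No group overlapped with another, and the order from low to high was shNT, the libraries labelled shCDK12_OHT, shNT_OHT and the libraries labelled shCDK12. HK2 rose 2.88-fold in shNT_OHT against shNT (1.52 ± 0.14, adjusted p = 1.1e-05) and 4.33-fold in the libraries labelled shCDK12 against shNT (2.11 ± 0.10, adjusted p = 3.92e-16). It was 3.33-fold lower in the libraries labelled shCDK12_OHT than in those labelled shCDK12 (-1.74 ± 0.07, adjusted p = 2.13e-12) and also lower than in shNT_OHT (-1.14 ± 0.11, adjusted p = 2.3e-05). The interaction was -3.30 ± 0.16, adjusted p = 3.01e-12. Its constitutive counterpart HK1 was called in 2 of the 4 comparisons of groups, lower in the libraries labelled shCDK12 than in shNT (-0.62 ± 0.10, adjusted p = 8.86e-06) and higher in those labelled shCDK12_OHT than in those labelled shCDK12 (0.39 ± 0.09, adjusted p = 0.00136). With the gene span trend removed the interaction of HK1 (0.43 ± 0.17, adjusted p = 0.0491) went to 0.11 and was not called (adjusted p = 0.667). HK1 was then called lower in the libraries labelled shCDK12_OHT against shNT_OHT (-0.45, adjusted p = 0.0373), where HK2 also fell. Per kilobase of exon the levels in shNT were 18.4 ± 0.559 CPM per kb for HK1 and 17.7 ± 3.01 for HK2, closer than the sum of their SDs, and they stood apart in the libraries labelled shCDK12, 12.0 ± 0.809 and 77.9 ± 3.37.

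GPI, which turns glucose 6-phosphate into fructose 6-phosphate, stood at 86.3, 92.3 and 69.7 CPM in shNT, 156, 143 and 153 CPM in shNT_OHT, 191, 172 and 189 CPM in the shCDK12-labelled libraries and 119, 120.4 and 128 CPM in the shCDK12_OHT-labelled ones. Its groups stood in the order seen for HK2, with no overlap. GPI rose in shNT_OHT against shNT (0.82 ± 0.15, adjusted p = 0.00185) and in the libraries labelled shCDK12 against shNT (1.12 ± 0.11, adjusted p = 5.34e-10), and fell in those labelled shCDK12_OHT against those labelled shCDK12 (-0.58 ± 0.08, adjusted p = 8.72e-06). Against shNT_OHT, in the libraries labelled shCDK12_OHT, it missed the threshold (-0.28 ± 0.11, adjusted p = 0.0608), and with the gene span trend removed it was called lower (-0.40, adjusted p = 0.0149), as PKM and SLC16A1 were.

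The 3 genes of phosphofructokinase, the step that commits sugar to glycolysis, were weak and differed from one another. None was called in shNT_OHT against shNT. PFKP, the platelet form, fell in the libraries labelled shCDK12 against shNT (-0.76 ± 0.20, adjusted p = 0.0016) and in those labelled shCDK12_OHT against shNT_OHT (-1.33 ± 0.21, adjusted p = 0.000618), from 32.1 ± 6.58 CPM in shNT_OHT to 12.2 ± 0.365 CPM. PFKM, the muscle form, was highest in the libraries labelled shCDK12_OHT at 42.2 ± 4.52 CPM and rose there against those labelled shCDK12 (0.86 ± 0.13, adjusted p = 2.73e-05) and against shNT_OHT (0.85 ± 0.23, adjusted p = 0.0105). PFKM overlaps the gene SENP1 in RefSeq, and where the counting used no strand, reads of the overlap cannot be assigned. PFKL, the liver form, was called in 1 of the 5 comparisons, lower in the libraries labelled shCDK12 than in shNT (-0.80 ± 0.23, adjusted p = 0.00396). With the control groups crossed, it was lower in the libraries labelled shCDK12_OHT than in shNT (-0.52 ± 0.19, adjusted p = 0.0179). In those labelled shCDK12 against shNT_OHT it was not called (-0.46 ± 0.27, adjusted p = 0.194).

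The PFKFB enzymes make and remove fructose 2,6-bisphosphate, the strongest activator of phosphofructokinase. PFKFB4 stood at 15.5, 19.1 and 18.2 CPM in shNT, 13.2, 12.6 and 16.7 CPM in shNT_OHT, 26.0, 24.2 and 28.0 CPM in the shCDK12-labelled libraries and 28.0, 28.0 and 30.9 CPM in the shCDK12_OHT-labelled ones. The 2 shNT groups overlapped with each other and lay below all 6 libraries with the other shRNA label. PFKFB2, PFKFB3 and PFKFB4 all rose in the libraries labelled shCDK12 against shNT, by 0.41, 0.76 and 0.56 on the log2 scale, beside 31.6% of all genes. They rose too in the libraries labelled shCDK12_OHT against shNT_OHT, by 0.45, 0.42 and 1.03, beside 23.3% of all genes. There PFKFB2 and PFKFB3 were no longer called once the gene span trend was removed (0.33 and 0.083, adjusted p = 0.0702 and 0.687). None of the 3 was called in either comparison of OHT or in the interaction, whose values ran from -0.38 for PFKFB3 to 0.44 for PFKFB4. With the gene span trend removed PFKFB3 was called lower in the libraries labelled shCDK12_OHT against those labelled shCDK12 (-0.20, adjusted p = 0.0398) and in the interaction (-0.70, adjusted p = 0.00398).

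Along the lower chain, from aldolase to pyruvate kinase, the enzymes that rose with OHT in shNT cells were ALDOA, TPI1, PGK1 and ENO1, 4 of 8 tested, and none fell, beside 9.39% of all genes higher and 8.54% lower. Of the same 8, 4 rose and 2 fell in the libraries labelled shCDK12 against shNT, beside 31.6% and 31% of all genes. None of them rose and 3 fell in those labelled shCDK12_OHT against shNT_OHT, beside 23.3% and 22.9%, while 2 of 9 rose and 6 fell between the libraries labelled shCDK12_OHT and shCDK12, beside 25.6% and 23.8%. ALDOA, which cleaves the 6-carbon sugar, stood at 144, 167 and 137 CPM in shNT, 251, 201 and 248 CPM in shNT_OHT, 203, 189.7 and 209 CPM in the shCDK12-labelled libraries and 148, 171 and 148 CPM in the shCDK12_OHT-labelled ones. The shNT_OHT libraries and those labelled shCDK12 overlapped and lay above the other groups, which overlapped with each other. ALDOA rose in shNT_OHT against shNT (0.61 ± 0.13, adjusted p = 0.00626) and in the libraries labelled shCDK12 against shNT (0.41 ± 0.10, adjusted p = 0.000563), and fell in those labelled shCDK12_OHT against those labelled shCDK12 (-0.35 ± 0.08, adjusted p = 0.00159) and against shNT_OHT (-0.56 ± 0.12, adjusted p = 0.00332).

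PGK1, the first step that yields ATP, stood at 111, 109 and 101 CPM in shNT, 149, 141 and 171 CPM in shNT_OHT, 197, 206 and 188 CPM in the shCDK12-labelled libraries and 154, 164 and 144 CPM in the shCDK12_OHT-labelled ones. All shNT libraries were lower and all libraries labelled shCDK12 were higher than the other groups, while shNT_OHT and the libraries labelled shCDK12_OHT overlapped. PGK1 rose in shNT_OHT against shNT (0.49 ± 0.14, adjusted p = 0.0237), a call that was lost without shNT replicate 1, 2 or 3, without shNT_OHT replicate 3 and with libraries thinned to equal depth (highest adjusted p = 0.14), and in the libraries labelled shCDK12 against shNT (0.87 ± 0.09, adjusted p = 8.66e-09). It fell in the libraries labelled shCDK12_OHT against those labelled shCDK12 (-0.35 ± 0.08, adjusted p = 0.00152).

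TPI1, GAPDH and PGAM1 carry further steps of the lower chain. TPI1, which interconverts the triose phosphates, rose in shNT_OHT against shNT (0.57 ± 0.13, adjusted p = 0.0084), a call lost without shNT replicate 3 or shNT_OHT replicate 3, and in the libraries labelled shCDK12 against shNT (0.61). It fell in those labelled shCDK12_OHT against those labelled shCDK12 (-0.24), a call lost once the gene span trend was removed (-0.17, adjusted p = 0.0795). GAPDH, the oxidising step and the most abundant member, showed a log2 fold change of 0.35 ± 0.13, adjusted p = 0.072 in shNT_OHT against shNT, rose in the libraries labelled shCDK12 against shNT (0.63) and fell in those labelled shCDK12_OHT against those labelled shCDK12 (-0.32). PGAM1, a mutase, fell in the libraries labelled shCDK12_OHT against those labelled shCDK12 (-0.40) and against shNT_OHT (-0.69). RefSeq lists 65 pseudogenes of GAPDH, 13 of PGAM1 and 4 of TPI1, and TPI1 overlaps SPSB2, so reads of these genes could have been split or shared in the counting.

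The 2 enolases differed. ENO1, the common form, rose in shNT_OHT against shNT (0.48) and fell in the libraries labelled shCDK12_OHT against shNT_OHT (-0.79), whereas its log2 fold change in the libraries labelled shCDK12 against shNT was -0.12 ± 0.08, adjusted p = 0.194. ENO2, the neuronal form, averaged 44.2 ± 6.37 CPM in shNT and 18.8 ± 4.11 CPM in the shCDK12-labelled libraries, where it fell (-1.25 ± 0.19, adjusted p = 1.51e-06), and it rose in those labelled shCDK12_OHT against those labelled shCDK12 (1.09 ± 0.15, adjusted p = 9.58e-06). PKM, pyruvate kinase, fell in the libraries labelled shCDK12 against shNT (-0.55), rose in those labelled shCDK12_OHT against those labelled shCDK12 (0.34) and had a value of 0.01 ± 0.11, adjusted p = 0.979 in shNT_OHT against shNT. ALDOC, the brain aldolase, had 2 to 84 counts a library and was tested only between the libraries labelled shCDK12_OHT and shCDK12, where its log2 fold change was -0.26 ± 0.23, adjusted p = 0.365.

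Lactate and pyruvate handling was led by SLC16A1 (MCT1, which carries lactate and pyruvate across the cell membrane). SLC16A1 stood at 339.6, 363 and 359 CPM in shNT, 591, 757 and 651 CPM in shNT_OHT, 1159.8, 1196 and 1233 CPM in the shCDK12-labelled libraries and 555, 581 and 616 CPM in the shCDK12_OHT-labelled ones. The shNT libraries were lowest and those labelled shCDK12 highest, each apart from all others, and the OHT groups of both labels overlapped between them. SLC16A1 rose 1.84-fold in shNT_OHT against shNT (0.88 ± 0.12, adjusted p = 0.000248) and 3.38-fold in the libraries labelled shCDK12 against shNT (1.76 ± 0.08, adjusted p = 7.07e-17). It was 2.04-fold lower in the libraries labelled shCDK12_OHT than in those labelled shCDK12 (-1.03 ± 0.07, adjusted p = 1.42e-09).

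LDHB, the lactate dehydrogenase subunit that favours lactate as a substrate, stood at 155, 120.4 and 150.3 CPM in shNT, 164, 187 and 201 CPM in shNT_OHT, 119, 111 and 118 CPM in the shCDK12-labelled libraries and 84.4, 93.5 and 114 CPM in the shCDK12_OHT-labelled ones. The shNT_OHT libraries were highest and did not overlap with shNT, yet LDHB missed the threshold there (0.35 ± 0.14, adjusted p = 0.11). The libraries labelled shCDK12 lay just below shNT and overlapped with those labelled shCDK12_OHT. LDHB fell in the libraries labelled shCDK12 against shNT (-0.29 ± 0.10, adjusted p = 0.0176) and in those labelled shCDK12_OHT against shNT_OHT (-0.89 ± 0.15, adjusted p = 0.000662). Despite the overlap it was also called lower in those labelled shCDK12_OHT than in those labelled shCDK12 (-0.25 ± 0.10, adjusted p = 0.0466). LDHA, the subunit that makes lactate from pyruvate, rose in the libraries labelled shCDK12 against shNT (0.58), from 321 ± 6.06 to 479.8 ± 33.7 CPM, and had a value of 0.21 ± 0.11, adjusted p = 0.196 in shNT_OHT against shNT. PDK1, which shuts pyruvate out of the mitochondrial dehydrogenase, averaged 22.9 ± 3.09 CPM in shNT and 55.8 ± 5.67 CPM in the shCDK12-labelled libraries (1.31 ± 0.16, adjusted p = 5.59e-08), and fell in those labelled shCDK12_OHT against those labelled shCDK12 (-0.97 ± 0.12, adjusted p = 1.76e-06). SLC16A3 (MCT4, the lactate exporter) had 7 to 98 counts a library and was called in no comparison that tested it.

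**Figure D2:**
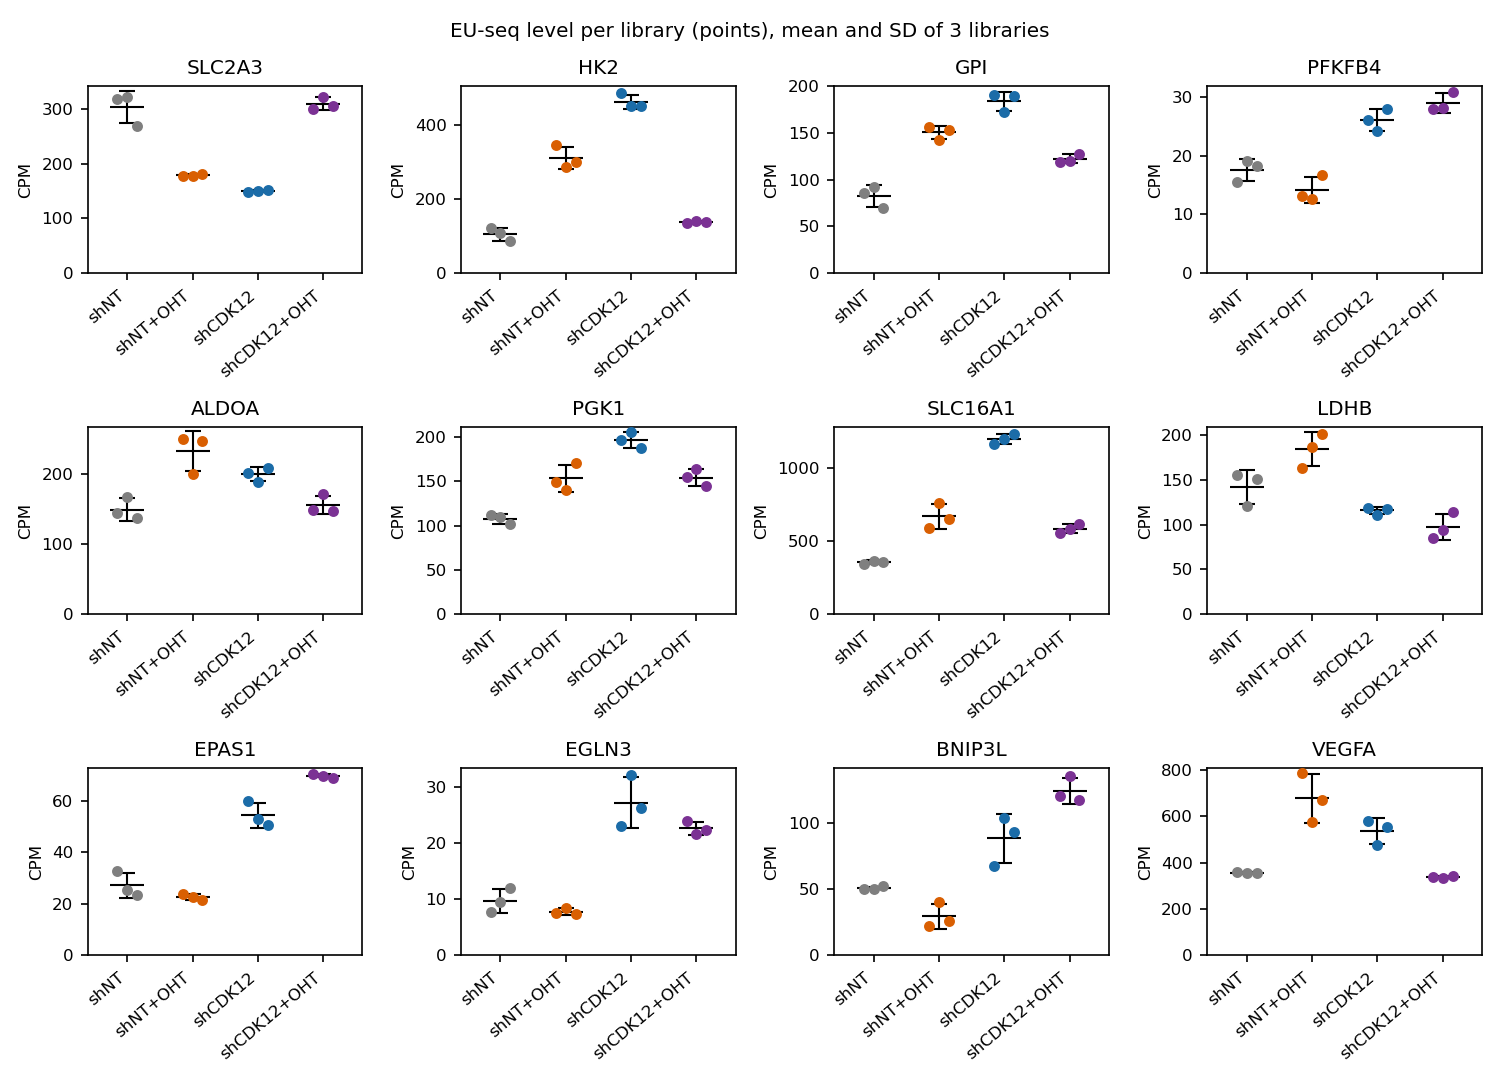
Level in CPM (vertical axes, each from 0) of 12 genes in the 4 groups as labelled (horizontal axes), with 1 point a library and bars for the mean and SD of 3 libraries. HK2, GPI and SLC16A1 are lowest in shNT and highest in the libraries labelled shCDK12, while EPAS1, EGLN3 and BNIP3L are higher in both groups labelled shCDK12 than in both shNT groups.

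Of the oxygen sensing genes, new RNA of the HIF alpha subunits differed in direction. EPAS1, which encodes HIF-2 alpha, stood at 32.6, 25.2 and 23.4 CPM in shNT, 23.7, 22.6 and 21.3 CPM in shNT_OHT, 60.0, 52.8 and 50.6 CPM in the shCDK12-labelled libraries and 70.3, 69.8 and 69.1 CPM in the shCDK12_OHT-labelled ones. The shNT and shNT_OHT libraries overlapped, and the other groups lay above them and apart from each other. EPAS1 rose in the libraries labelled shCDK12 against shNT (0.98 ± 0.16, adjusted p = 4.69e-06), in those labelled shCDK12_OHT against shNT_OHT (1.66 ± 0.15, adjusted p = 1.75e-05) and against those labelled shCDK12 (0.37 ± 0.10, adjusted p = 0.00482), whereas its value in shNT_OHT against shNT was -0.31 ± 0.24, adjusted p = 0.392. Its interaction (0.65 ± 0.22, adjusted p = 0.0186) was not called with the gene span trend removed (0.40, adjusted p = 0.148). HIF1A, which encodes HIF-1 alpha, fell in the libraries labelled shCDK12 against shNT (-0.41 ± 0.09, adjusted p = 0.000237). Its level was 216, 220.2 and 215 CPM in shNT and 175, 161 and 156 CPM in those libraries, and no other of the 5 comparisons called it. With the control groups crossed, HIF1A was lower in the libraries labelled shCDK12_OHT than in shNT (-0.49 ± 0.07, adjusted p = 7.01e-07). In those labelled shCDK12 against shNT_OHT it was not called (-0.07 ± 0.20, adjusted p = 0.80). HIF1A shares its locus with 3 antisense genes, whose reads cannot be told apart where strand was not used.

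EGLN3, a prolyl hydroxylase that is itself induced by hypoxia, stood at 7.74, 9.37 and 12.0 CPM in shNT, 7.57, 8.37 and 7.31 CPM in shNT_OHT, 23.1, 32.1 and 26.2 CPM in the shCDK12-labelled libraries and 23.8, 21.5 and 22.3 CPM in the shCDK12_OHT-labelled ones. Both shNT groups overlapped, both groups labelled with the CDK12 shRNA overlapped, and the second pair lay above the first. EGLN3 rose in the libraries labelled shCDK12 against shNT (1.55 ± 0.22, adjusted p = 1.04e-06) and in those labelled shCDK12_OHT against shNT_OHT (1.59 ± 0.22, adjusted p = 0.000249). It was below the count filter in shNT_OHT against shNT. EGLN1, the main oxygen sensor of the family, rose in the same comparisons, by 0.65 and 0.59 on the log2 scale. The second was no longer called with the gene span trend removed (0.46, adjusted p = 0.0699).

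Among the other hypoxia-responsive genes, VEGFA, the growth factor for blood vessels, had the directions of HK2 in all 4 comparisons of groups, and the mitophagy gene BNIP3L had them only in the libraries labelled shCDK12 against shNT. VEGFA stood at 360.2, 353 and 354 CPM in shNT, 786, 577 and 670.5 CPM in shNT_OHT, 581, 476 and 552 CPM in the shCDK12-labelled libraries and 338, 334 and 341 CPM in the shCDK12_OHT-labelled ones. The shNT_OHT libraries and those labelled shCDK12 overlapped and lay above shNT, and the libraries labelled shCDK12_OHT lay just below shNT with no overlap. VEGFA rose in shNT_OHT against shNT (0.90 ± 0.12, adjusted p = 0.000182) and in the libraries labelled shCDK12 against shNT (0.59 ± 0.08, adjusted p = 1.02e-06), and fell in those labelled shCDK12_OHT against those labelled shCDK12 (-0.66 ± 0.08, adjusted p = 1.33e-06) and against shNT_OHT (-0.98 ± 0.11, adjusted p = 7.38e-05).

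BNIP3L, a receptor on mitochondria marked for removal, stood at 49.9, 50.3 and 52.0 CPM in shNT, 22.1, 40.2 and 25.4 CPM in shNT_OHT, 67.7, 104 and 93.2 CPM in the shCDK12-labelled libraries and 120.2, 136 and 117 CPM in the shCDK12_OHT-labelled ones. No groups overlapped, with shNT_OHT lowest and the libraries labelled shCDK12_OHT highest. BNIP3L fell in shNT_OHT against shNT (-0.89 ± 0.23, adjusted p = 0.0167), a call lost without shNT replicate 1, 2 or 3 and without shNT_OHT replicate 3 (highest adjusted p = 0.0723), and rose in the libraries labelled shCDK12 against shNT (0.81 ± 0.14, adjusted p = 1.44e-05). It rose 4.61-fold in the libraries labelled shCDK12_OHT against shNT_OHT (2.20 ± 0.20, adjusted p = 1.92e-05). Its relative BNIP3 was not called in shNT_OHT against shNT (-0.01 ± 0.30, adjusted p = 0.991) and rose by 1.06 and 1.08 in the libraries with the CDK12 label, without and with OHT. RefSeq lists 46 pseudogenes of BNIP3, and the gene overlaps PPP2R2D.

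ADM, the vasodilator peptide adrenomedullin, had the largest increase in the list as labelled. It went from 23.8 ± 0.798 CPM in shNT to 121 ± 6.76 CPM in the shCDK12-labelled libraries (2.35 ± 0.13, adjusted p = 9.28e-15), a 5.10-fold rise. It rose in those labelled shCDK12_OHT against shNT_OHT (1.49 ± 0.17, adjusted p = 8.11e-05) and fell against those labelled shCDK12 (-0.36 ± 0.10, adjusted p = 0.00483). The rank rests on the labels in doubt. In the libraries labelled shCDK12_OHT against shNT, ADM rose by 1.99 ± 0.12 (adjusted p = 6.37e-15). In those labelled shCDK12 against shNT_OHT it rose by 1.84 ± 0.17 (adjusted p = 4.31e-06), beside 1.86 ± 0.27 for EGLN3. NDRG1, a stress-induced gene that MYC is known to repress, fell in shNT_OHT against shNT (-0.66 ± 0.12, adjusted p = 0.00246) and was highest in the libraries labelled shCDK12_OHT at 439 ± 35.8 CPM, above shNT_OHT (1.51 ± 0.11, adjusted p = 8.04e-06) and above those labelled shCDK12 (0.72 ± 0.08, adjusted p = 4.06e-07). P4HA1, a collagen prolyl hydroxylase, and KDM3A, a histone demethylase, both rose in the libraries labelled shCDK12 against shNT (1.11 and 0.23) and in those labelled shCDK12_OHT against shNT_OHT (0.82 and 0.58). In the second comparison P4HA1 was no longer called with the gene span trend removed (0.63, adjusted p = 0.0826). ANKRD37 had 3 to 61 counts a library and was tested once, between the libraries labelled shCDK12_OHT and shCDK12 (-0.53 ± 0.25, adjusted p = 0.0787). CA9, the carbonic anhydrase often used to mark hypoxia, had 0 to 16 counts a library and was tested nowhere.

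The responses to OHT, which share no library, ran mostly in opposite directions under the 2 shRNA labels. Of 32 members tested in both, 30 had log2 fold changes of opposite sign (93.8%), where 71% of all 9913 genes tested in both did. PKM and HIF1A were the exceptions. With the OHT direction turned in the libraries labelled shCDK12, as an exchange of their OHT labels would turn it, 2 of the 32 members (6.25%) and 29% of all genes were of opposite sign. The 11 members called in both comparisons were all of opposite sign, as were 1377 of the 1410 genes of the whole table called in both. The interaction was largest for HK2, followed by SLC16A1 (-1.94 ± 0.13, adjusted p = 5.39e-10), SLC2A3 (1.81 ± 0.13, adjusted p = 1.63e-09), VEGFA (-1.60 ± 0.15, adjusted p = 3.87e-08), ENO2 (1.44 ± 0.32, adjusted p = 0.0011) and GPI (-1.44 ± 0.16, adjusted p = 3.49e-07). The MYC targets of the label check were all 10 called and negative. These values and their order rest on the labels in doubt. With the direction turned, the term was 0.19 ± 0.15 for HK2 (adjusted p = 0.502), 0.13 ± 0.13 for SLC16A1 (adjusted p = 0.602) and -0.29 ± 0.13 for SLC2A3 (adjusted p = 0.197). None of the 34 members tested was then called by edgeR or by DESeq2, with 7 at an unadjusted p under 0.05, where 6.41% of all genes were called by edgeR.

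**Figure D3:**
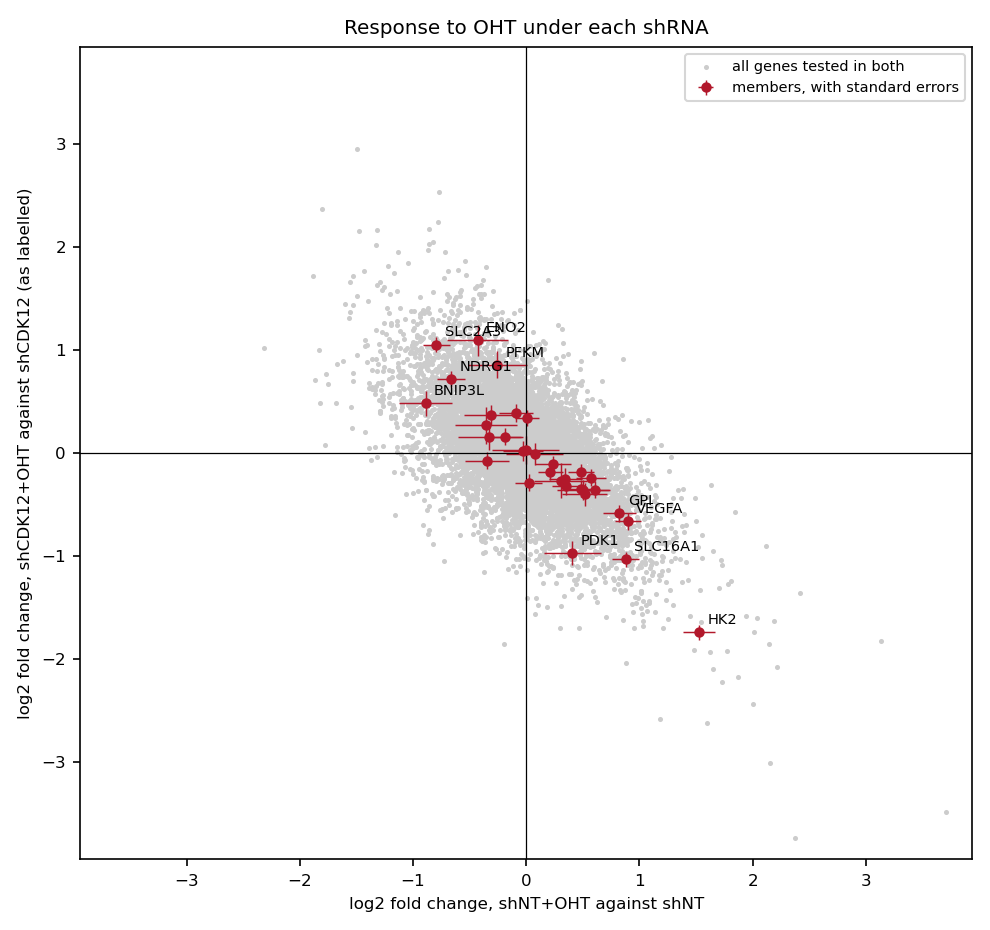
Log2 fold change with OHT in shNT cells (horizontal axis) against that in the libraries labelled shCDK12 (vertical axis), for all genes tested in both (grey) and 32 members (red, with standard errors). Most points run from upper left to lower right, with HK2 at the lower right end of the members and SLC2A3 and BNIP3L at the upper left.

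The effects of the CDK12 shRNA label without and with OHT, which also share no library, differed in sign for 12 of 34 members tested in both (35.3%), where 40.6% of all 10965 genes did. Of 17 members called in both, 13 kept their direction (76.5%) and 4 did not, beside 70.8% of the 3424 genes of the whole table called in both that kept theirs. Those higher in both were PFKFB2, PFKFB3, PFKFB4, EPAS1, EGLN1, EGLN3, BNIP3, BNIP3L, P4HA1, ADM and KDM3A. Those lower in both were PFKP and LDHB, 5.88% of the members tested in both, beside 11.1% of all genes. By the labels, SLC2A3 was lower without OHT and higher with it, and HK2, ALDOA and VEGFA were higher without OHT and lower with it. These 4 reversals and the counts rest on the OHT labels in doubt. With the control groups crossed, that is shCDK12_OHT against shNT and shCDK12 against shNT_OHT, 2 of 34 members (5.88%) and 22% of all 10622 genes differed in sign, and the 19 members called in both kept their direction, as did 98.6% of the 3410 genes called in both. Then 14 members (41.2%) were higher in both, beside 15.4% of all genes. Lower in both were 5 of the 34 members, beside 1729 of the 10622 genes. PFKFB2 (0.42 and 0.44), EGLN1 (0.63 and 0.58) and KDM3A (0.39 and 0.41) were no longer called higher in both. They missed the threshold only in shCDK12 against shNT_OHT, at adjusted p = 0.0550, 0.0518 and 0.0526. HK2, PGK1, LDHA, SLC16A1, PDK1 and NDRG1 joined the members higher in both, and HK1, ENO1 and PKM joined those lower in both. HK2 stood at values above 0 in both (0.36 ± 0.09, adjusted p = 0.000817, and 0.59 ± 0.11, adjusted p = 0.00122), and SLC2A3, ALDOA and VEGFA were called in neither. As labelled, the 11 higher in both were 32.4% of the members tested in both, beside 11.1% of all genes, and 4 of them, PFKFB2, PFKFB3, EGLN1 and P4HA1, lost their call with OHT once the gene span trend was removed. Their log2 fold changes there went from 0.45, 0.42, 0.59 and 0.82 to 0.33, 0.083, 0.46 and 0.63 in that order.

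**Figure D4:**
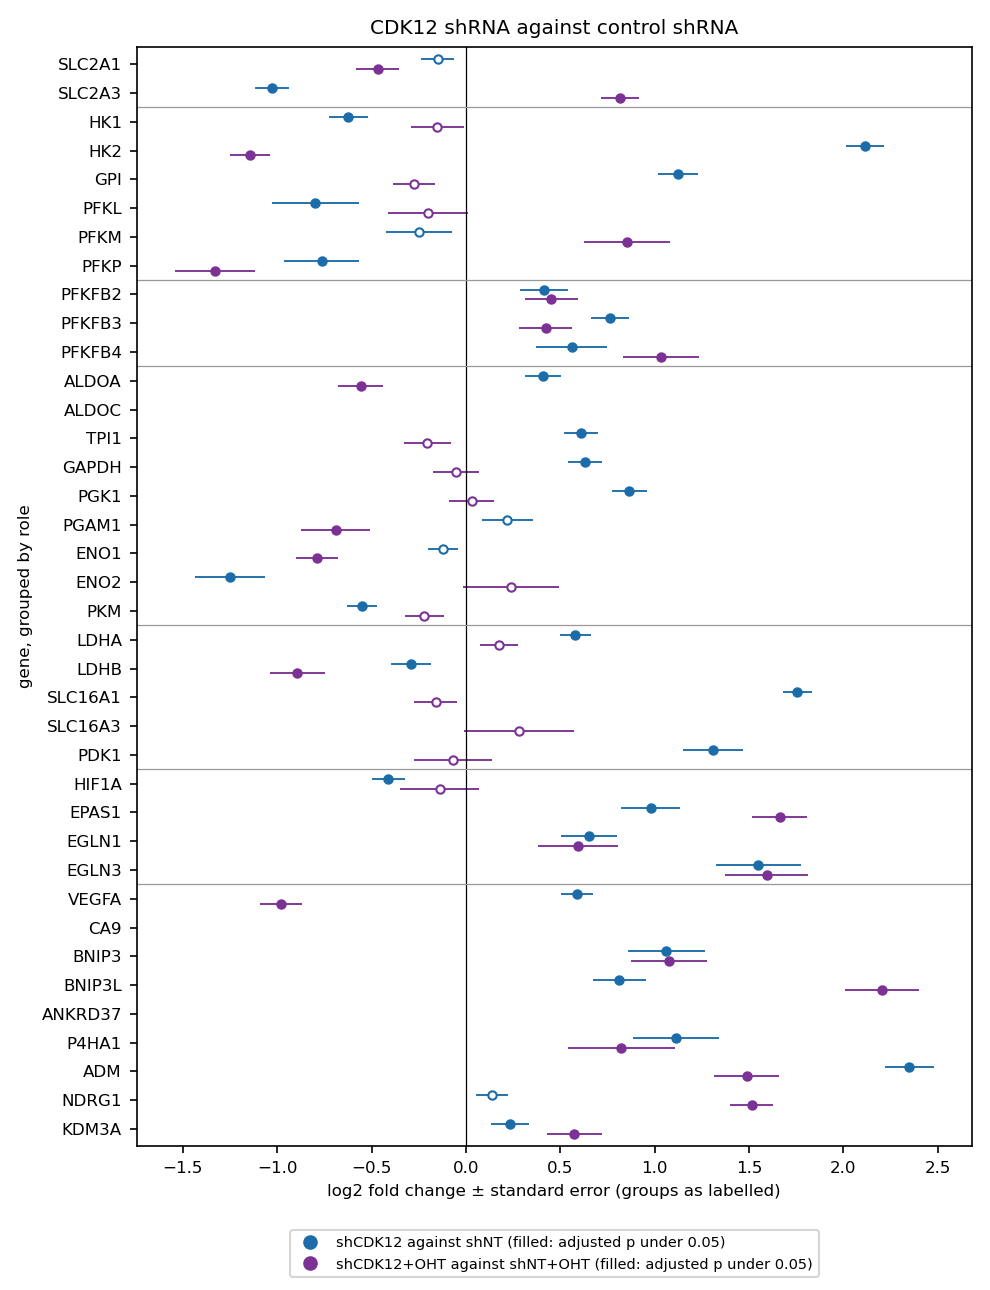
Log2 fold change ± standard error (horizontal axis) of each member (vertical axis, grouped by role) in the libraries labelled shCDK12 against shNT without OHT (blue) and with OHT (purple), filled where the adjusted p was under 0.05. PFKFB enzymes and most hypoxia-responsive genes lie right of 0 in both, while HK2, ALDOA and VEGFA lie on opposite sides.

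The HIF pathway outside the list was read from genes chosen by role, whose counts stand beside 17.9% of all genes called in shNT_OHT against shNT, 62.6% in the libraries labelled shCDK12 against shNT, 49.4% between the libraries labelled shCDK12_OHT and shCDK12, 46.3% in those labelled shCDK12_OHT against shNT_OHT and 46% in the interaction. Of 13 HIF regulators, none rose and 2 of 10 tested fell in shNT_OHT against shNT, ARNT, the HIF beta subunit (-0.95 ± 0.21, adjusted p = 0.00712), and its relative ARNT2 (-1.14 ± 0.33, adjusted p = 0.0284). Without OHT, 4 of 10 rose and 5 fell in the libraries labelled shCDK12 against shNT. ARNT fell again (-1.17 ± 0.14, adjusted p = 4.19e-08), and ELOC, an elongin of the complex that marks HIF alpha for destruction, rose (1.01), as did CITED2, a HIF-induced antagonist of the co-activators (0.98). Between the libraries labelled shCDK12_OHT and those labelled shCDK12 4 of 11 rose and 3 fell, with ARNT2 (1.07) and ARNT (0.80) higher. Against shNT_OHT the libraries labelled shCDK12_OHT had 3 of 10 higher, among them ARNT2 (1.45), and none lower. The interaction was called for 6 of 10, with 3 in each direction as labelled. With the OHT direction turned in the libraries labelled shCDK12 it was called for 2 of 10, HIF1AN (-0.88 ± 0.15, adjusted p = 0.00188) and CITED2 (-0.79 ± 0.15, adjusted p = 0.00364), beside 6.41% of all genes.

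Of 25 further genes known to respond to hypoxia, 6 of 19 tested rose and 3 fell in shNT_OHT against shNT. CA12, a carbonic anhydrase of the cell surface, rose most (1.87 ± 0.34, adjusted p = 0.00213), followed by DDIT4, an inhibitor of mTORC1 (1.11 ± 0.11, adjusted p = 1.82e-05), and LOX, which cross-links collagen, fell most (-1.11 ± 0.20, adjusted p = 0.00208). Of 22 tested in the libraries labelled shCDK12 against shNT 10 rose, led by CA12 (3.32 ± 0.21, adjusted p = 2.44e-13) and the MAX partner MXI1 (1.88 ± 0.11, adjusted p = 1.69e-14), and 8 fell, among them the clock repressor BHLHE40 (-1.75 ± 0.07, adjusted p = 1.64e-17). Between the libraries labelled shCDK12_OHT and those labelled shCDK12 6 of 22 rose, among them BHLHE40 (1.01), and 7 fell, led by CA12 (-2.17). Against shNT_OHT the libraries labelled shCDK12_OHT had 6 of 22 higher, led by INSIG2 (1.85), and 6 lower, led by BHLHE41 (-1.93). The interaction was called for 18 of 22, with 9 in each direction, and for 4 of 22 with the direction turned. CA12 stood at -4.07 ± 0.32, adjusted p = 3.53e-09 as labelled and at 0.28 ± 0.32, adjusted p = 0.652 with the OHT direction turned in the libraries labelled shCDK12.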

How the data were processed

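EU-labelled RNA of 12 libraries was sequenced from a stranded total RNA kit. The authors deposited raw counts of reads per gene, with Entrez identifiers and symbols; per the submitters' processing notes STAR 2.7.5c, featureCounts 1.4.5-p1 and hg19 were used, and strand setting, intron counting and treatment of the admixed mouse reads are not given in the sources used here. All 12 count columns matched a library title, and 0 other columns of sample values were left out.

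From these counts, edgeR 4.0.16 (with limma 3.58.1, R 4.3.3) was run with TMM normalisation and the quasi-likelihood test. Each pair of groups was fitted on its 6 libraries and the interaction on all 12, for genes with a mean normalised count above 32, with Benjamini-Hochberg adjustment over all genes tested and a threshold of 0.05. The labels do not say that the libraries of a group came from separate cultures, so p-values measure the spread between these libraries, which may be technical. Libraries of a group differed beyond counting error (chi-square per degree of freedom from 2.69 to 9.31), so none was counted as a duplicate. The 38 members, the gene lists and the tests were chosen with earlier results of these data known. Values in every library are given for 12 members, in each role list the 1 or 2 called in the most of the 5 comparisons. Fold changes were to be given for the 10 largest called in each comparison, and those of further members were added after the values were seen so that each of the 38 is described. Genes of other lists are the up to 3 with the largest change each way among those called, and a few genes of these lists are not reported here. Alternatives were DESeq2 1.42.0, upper-quartile scaling, other count filters, a replicate block, a fit of all 12 libraries, thinning to equal depth, removal of the gene span trend, leaving out each library and, added later, turning the OHT direction in the libraries labelled shCDK12 and crossing their control groups. On simulated counts with 200 genes changed 2-fold, the pair fit of shNT_OHT and shNT recovered 145 of them among 9807 genes, with 3 false calls, and the fit of shCDK12 and shNT recovered 179 among 11272, with 7. The interaction recovered 114 among 11154, with 4. Far more genes were called in the data, 62.6% in the libraries labelled shCDK12 against shNT. The simulation does not test the fits where so many genes change.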

Additional observations from a re-analysis of the deposited data

Results flagged for a closer look

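For 21 members the response to OHT differed between the libraries with the shNT and with the CDK12 shRNA label, by the interaction term of edgeR's quasi-likelihood fit over all 12 libraries, where 46% of all genes did. The values are log2 differences, the OHT response under the CDK12 label minus that in shNT cells, and they rest on libraries whose labels are in doubt: with the OHT direction turned under the CDK12 label none of the 34 members tested was called by edgeR or DESeq2, with 7 at an unadjusted p under 0.05. Among transporters and enzymes of the upper chain the term was 1.81 for SLC2A3, 0.43 for HK1, -3.30 for HK2, -1.44 for GPI and 1.07 for PFKM. In the lower chain it was -1.0 for ALDOA, -0.85 for TPI1, -0.72 for GAPDH, -0.87 for PGK1, -0.94 for PGAM1, -0.71 for ENO1 and 1.44 for ENO2. In lactate and pyruvate handling it was -0.44 for LDHA, -0.63 for LDHB, -1.94 for SLC16A1 and -1.40 for PDK1. Among the hypoxia genes it was 0.65 for EPAS1, -1.60 for VEGFA, 1.37 for BNIP3L, -0.89 for ADM and 1.34 for NDRG1.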

How the results depend on the processing

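Of 50 log2 fold changes, the 10 largest called in each comparison, 47 kept their direction and their call under every other fit that tested them. The turned direction below and the crossed control groups of the report are left out here, and none reversed in the other fits. The choice of large changes favours stable calls, and smaller calls of the report are not among the 50. With the gene span trend removed the interactions of HK1 (0.43 to 0.11) and EPAS1 (0.65 to 0.40) lost their call. That of PFKFB3 (-0.38 to -0.70) gained one. When thinned to equal depth 7 of the 47 fell below the count filter (EGLN3 and BNIP3 in both shRNA comparisons, P4HA1 in shCDK12 against shNT, PFKP and PFKFB4 in shCDK12_OHT against shNT_OHT). PGK1, TPI1 and BNIP3L in shNT_OHT against shNT lost their call without single libraries, PGK1 also with thinning. In shNT_OHT against shNT 1785 genes were called. With all 12 libraries in one fit 3269 were, and leaving out 1 library gave 642 to 2533. The count fell to 763, 642 and 837 without shNT replicates 1, 2 and 3 and to 1074 without shNT_OHT replicate 3, and members called ran from 7 to 14. Thinned to equal depth, 4422 genes were called in the libraries labelled shCDK12 against shNT, 3173 in those labelled shCDK12_OHT against shCDK12, 3122 in those against shNT_OHT and 3170 in the interaction, where fewer genes passed the count filter. The members' median in shCDK12_OHT against shNT_OHT turned to -0.043 with all 12 libraries in one fit, to -0.0024 without shCDK12_OHT replicate 1 and to -0.016 without replicate 2, and the cause was not tested. Leaving out 1 library it ran from -0.016 to 0.074, and with the gene span trend removed it was 0.083. In that comparison, without shNT_OHT replicate 2, 11 members were higher and 11 lower, beside 2850 and 2948 of all genes. With the gene span trend removed, 917 genes were higher and 549 lower in shNT_OHT against shNT, beside 935 and 850. With no count filter the median over all genes was 0.21 in shCDK12_OHT against shNT_OHT and 0.12 in shCDK12 against shNT.

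Deviations of libraries with the same replicate number from their group means correlated from -0.105 to 0.340, over 0.1 in 3 of 18 pairs, so the numbers were not taken to pair the libraries. With a replicate block 1708, 7311, 6161 and 4665 genes were called in the 4 comparisons in the order of the report, and 5297 in the interaction, with 12, 29, 22, 22 and 22 members. Totals differed 8.35-fold between libraries, and CA9 was left out by the count filter.

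Chosen after seeing the data, the OHT direction was turned in the libraries labelled shCDK12. The interaction was then called for 722 genes (1035 with DESeq2) and 0 members with either tool, with a members' median of -0.070. It reversed for HK2 (0.19), SLC16A1 (0.13), SLC2A3 (-0.29), ENO2 (-0.71), PDK1 (0.54), NDRG1 (-0.084) and PFKM (-0.63), and lost its call for VEGFA (-0.27), GPI (-0.26) and BNIP3L (0.40).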

Other observations

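Pathways that branch from glycolysis were read from lists chosen by role, under the same tests, in which 17.9% of all genes were called in shNT_OHT against shNT and 62.6% in the libraries labelled shCDK12 against shNT. Of 13 genes of mitochondrial pyruvate entry, 1 of 10 tested rose in shNT_OHT against shNT, PDP2, a phosphatase that switches pyruvate dehydrogenase on (0.92 ± 0.11, adjusted p = 9.17e-05), and none fell. Of 13 tested in the libraries labelled shCDK12 against shNT 5 rose, among them the inhibitory kinases PDK3 (1.53 ± 0.32, adjusted p = 0.00018) and PDK4 (1.34 ± 0.23, adjusted p = 1.62e-05), and 3 fell, among them their relative PDK2 (-1.0 ± 0.25, adjusted p = 0.00123). Between the libraries labelled shCDK12_OHT and those labelled shCDK12, PDK2 rose (1.30) and PDP2 fell (-0.99). Of the pentose phosphate pathway, RPIA, the ribose 5-phosphate isomerase, was the 1 gene of 6 tested that rose in shNT_OHT against shNT (1.01 ± 0.24, adjusted p = 0.0116). It rose in the libraries labelled shCDK12 against shNT (1.20) and fell in those labelled shCDK12_OHT against those labelled shCDK12 (-0.96).

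Of 14 genes of glycogen and gluconeogenesis, 2 of 10 tested rose in shNT_OHT against shNT, PCK2, the mitochondrial carboxykinase (0.74 ± 0.24, adjusted p = 0.043), and PYGL, the liver phosphorylase (0.58 ± 0.19, adjusted p = 0.0462), and UGP2, which makes UDP-glucose, fell (-0.79 ± 0.19, adjusted p = 0.0111). Against shNT, the libraries labelled shCDK12 had 3 of 10 higher and 3 lower. There GYS1, glycogen synthase (0.92), rose, and PCK2 fell (-1.11 ± 0.23, adjusted p = 0.000163). Of 25 further isozymes and transporters 7 passed the count filter in shNT_OHT against shNT. There GAPDHS (0.78) and the ADP-dependent glucokinase ADPGK (0.62) rose, and the transporter SLC2A12 (-0.83) and the phosphatase TIGAR (-0.53) fell. Of 10 tested in the libraries labelled shCDK12 against shNT 7 rose, led by the muscle enolase ENO3 (1.36 ± 0.28, adjusted p = 0.000122), and 1 fell.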
